A study of Mus musculus with 6 samples.

Results

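The genes described here are 45 mouse genes that copy DNA in S phase and supply its building blocks, followed in B16F10 melanoma tumours under 6 treatments. The members were fixed by symbol, and all 45 were found by Ensembl ID among the 43629 genes of the count table. B16F10 is a mouse melanoma line that pairs with C57BL/6J hosts. Cells were injected under the skin of 8-week-old female C57BL/6J mice with an intact immune system, and dosing ran daily until control tumours measured 2000 mm3. The anti-PD-1 group received DMSO and an antibody against PD-1, an inhibitory receptor of T cells. The AZD5363+MK1775 group received inhibitors of the kinases AKT and WEE1 with control IgG, and the AZD5363+MK1775+anti-PD-1 group, called the triple-treated pool below, received both inhibitors with the antibody. The KS100 group received an aldehyde dehydrogenase inhibitor with control IgG, the KS100+anti-PD-1 group received it with the antibody, and the control group received DMSO and control IgG. RNA came from pooled tumours, so each treatment is 1 pool and nothing measures the spread between mice.

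DNA replication starts when the origin recognition complex, Cdc6 and Cdt1 load the Mcm2 to Mcm7 helicase onto DNA, a step called licensing. Cdc45 and the GINS complex then switch the helicase on, primase and polymerase alpha lay down primers, polymerases delta and epsilon extend them, and the Pcna clamp, its Rfc loader, Fen1 and Lig1 finish the lagging strand. Most of these genes are known targets of E2F transcription factors and are read at the border of G1 and S phase, so their RNA is high in cycling tumour cells. WEE1 restrains the cyclin-dependent kinases that fire origins, and ribonucleotide reductase makes the deoxynucleotides that forks consume.

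Libraries were 3′ tag libraries, which give about 1 read per transcript near its poly(A) site, so the counts do not scale with transcript length. Depth differed widely between pools. The anti-PD-1 pool held 1002088 counts, the AZD5363+MK1775 pool 26639, the triple-treated pool 338474, the KS100 pool 44748, the KS100+anti-PD-1 pool 25521 and the control pool 1591673. A count of 0 therefore allows up to 113 CPM (counts per 1000000 counts) under AZD5363+MK1775, 67 CPM under KS100 and 118 CPM under KS100+anti-PD-1, against 1.88 CPM in the control pool, taking 3 counts as the limit. Mitochondrially encoded and ribosomal RNA made up 13.8% to 32.7% of counts in the 4 inhibitor pools, highest in the triple-treated pool, against 1.29% under anti-PD-1 and 1.89% in the control pool. Markers of the melanoma line were present in every pool, although 1 of the 8, Tyr, was at 0 in the AZD5363+MK1775, KS100 and KS100+anti-PD-1 pools. Pairs of pools were compared by the ratio of their counts after TMM scaling, with an exact 95% counting interval. A gene passed when it had at least 20 counts in 1 of the pools, differed at least 2-fold, and had its interval wholly beyond 1.5-fold. No p-value can be given for such a pair, and the intervals cover counting error only.

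Markers of other cell types differed between pools as well, on the scaled counts just described. The 6 skeletal muscle markers stood at 13.2 times control (10.5 to 16.9) under anti-PD-1, 243 times (194 to 307) in the triple-treated pool, 5.26 times (2.32 to 10.5) under KS100 and 19 times (10.6 to 32.5) under KS100+anti-PD-1. They had 0 counts under AZD5363+MK1775, and Acta1, Tnnt3 and Ckm were at 0 in both KS100 pools. The muscle sums there rested on 9 counts under KS100, where Mylpf was at 0 as well, and 17 under KS100+anti-PD-1. Only 1 muscle marker had enough counts to be tested in these 2 comparisons with control, with log2 ratios of -3.84 and -3.82. The 6 fibroblast markers stood at 13.5 (11.6 to 15.9), 6.23 (4.99 to 7.77), 4.51 (2.62 to 7.34) and 5.29 (2.6 to 9.69) times control under anti-PD-1, in the triple-treated pool, under KS100 and under KS100+anti-PD-1, and at 0.604 (0.0726 to 2.21) under AZD5363+MK1775. The fibroblast sums rested on 18 counts under KS100 and 11 under KS100+anti-PD-1. Lum and Pdgfra were at 0 in both of these pools, and Dcn was at 0 under KS100+anti-PD-1.

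All 45 genes together took a smaller share of the RNA in every treated pool than in the control pool. They held 6056 counts, or 0.604% of the total, under anti-PD-1 and 121 counts, or 0.454%, under AZD5363+MK1775. The share was 0.367% in the triple-treated pool on 1243 counts, 0.293% under KS100 on 131 counts and 0.247% under KS100+anti-PD-1 on 63 counts. The control pool had 11372 counts in these genes, or 0.714%. No 2 of the 95% exact binomial intervals of anti-PD-1 (0.589% to 0.62%), the triple-treated pool (0.347% to 0.388%) and control (0.701% to 0.728%) overlapped.

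**Figure D1:**
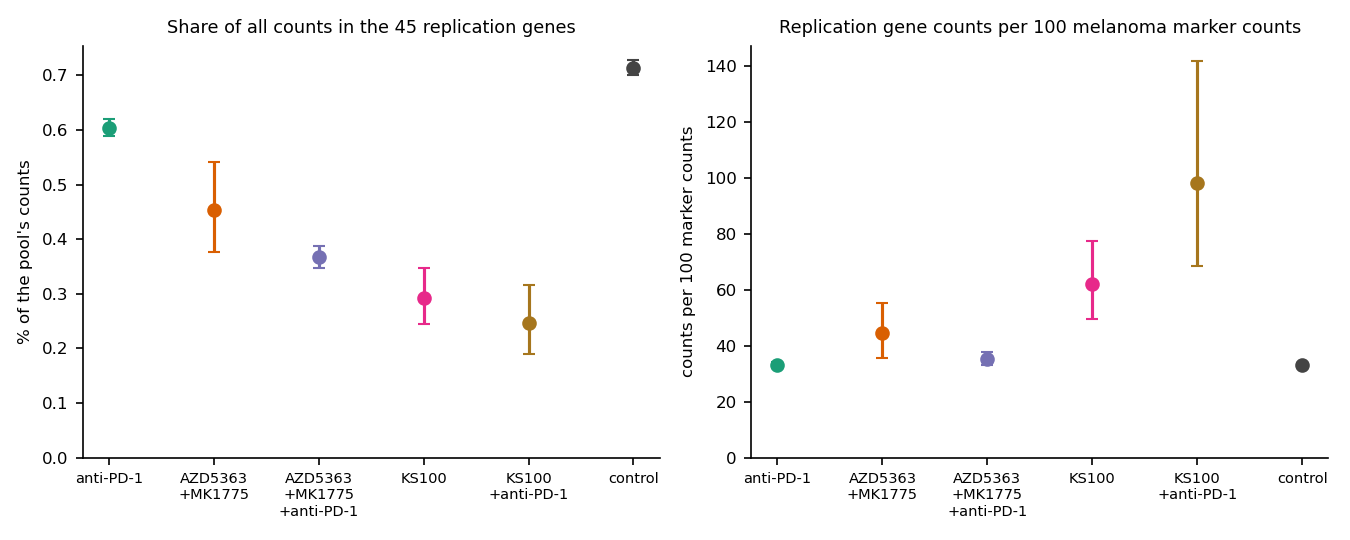
Left, percent of each pool's counts that fell in the 45 replication genes; right, their counts per 100 counts of 8 melanoma marker genes. Points are single pools, bars are 95% counting intervals. The share runs from 0.247% to 0.604% in treated pools against 0.714% in control, while the count per 100 melanoma marker counts is 33.1 to 98.4 in treated pools against 33.3 in control.

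After TMM scaling the summed ratio to control was 0.822 (95% counting interval 0.797 to 0.849) for anti-PD-1 and 0.83 (0.782 to 0.88) for the triple-treated pool, where library totals gave 0.514. It was 0.592 (0.49 to 0.708) for AZD5363+MK1775, 0.532 (0.444 to 0.631) for KS100 and 0.49 (0.377 to 0.628) for KS100+anti-PD-1. The melanoma markers were lower as well, at 0.828, 0.441, 0.782, 0.285 and 0.166 of control in the anti-PD-1, AZD5363+MK1775, triple-treated, KS100 and KS100+anti-PD-1 pools. Set against those markers the direction turned in 3 inhibitor pools: the summed ratio became 1.34 (1.11 to 1.6) for AZD5363+MK1775, 1.86 (1.56 to 2.21) for KS100 and 2.95 (2.27 to 3.78) for KS100+anti-PD-1. It was 1.06 (1 to 1.13) for the triple-treated pool and 0.993 (0.963 to 1.02) for anti-PD-1. These intervals take the marker counts as fixed and so are too narrow. With both sides counted, the 45 genes had 44.6 counts (35.7 to 55.5) per 100 marker counts under AZD5363+MK1775. The values were 62.1 (49.5 to 77.6) under KS100 and 98.4 (68.4 to 142) under KS100+anti-PD-1, against 33.3 (32.6 to 34) in the control pool. In bulk tumour RNA, fewer tumour cells and less replication RNA per cell cannot be told apart. Against 8 proliferation genes outside the list, among them Mki67 and Top2a, the 45 genes stood at 168 counts per 100 marker counts under anti-PD-1, 233 under AZD5363+MK1775, 178 in the triple-treated pool, 215 under KS100 and 175 under KS100+anti-PD-1, against 158 in the control pool. A part of the counts in the KS100 pools may have been background, and its size was estimated. The estimate spreads background evenly over exons. It also takes any gene with counts only under an inhibitor as background. From 8817 protein-coding genes at 0 in both deep pools without inhibitor, 15.2 of the 131 counts under KS100 and 17.7 of the 63 under KS100+anti-PD-1 were expected as background, against 1.45 of 121 under AZD5363+MK1775 and 9.26 of 1243 in the triple-treated pool.

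The anti-PD-1 pool, the deepest treated pool, showed a mild lowering with no single gene past the rule. Of 44 genes with enough counts 0 were called lower and 0 higher, where 2.14% of all 8119 genes tested were called lower and 2.69% higher. The interval lay wholly below 1 for 14 genes and wholly above 1 for 1. The lowest were Chaf1b, a subunit of the histone chaperone CAF-1, at 0.441 of control, Gmnn (geminin, the inhibitor of Cdt1) at 0.488, Orc1 at 0.496, Mcm6 at 0.506 and Rpa2 at 0.53. The highest was Pola1, the catalytic subunit of polymerase alpha, at 1.5 (1.06 to 2.12). The median log2 ratio of the 44 genes was -0.2, against 0 for all genes tested. At this depth a fall to 0.25 of control would have passed the rule for 42 genes.

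In the triple-treated pool single genes passed on either side of control. Passing on the higher side were 5 of 44 genes, Mcm7, Pola1, Pold1, Rfc1 and Lig1, where 14.9% of all 8059 genes tested passed. On the lower side 6 passed, Orc1, Gins2, Rpa2, Rrm2, Dut and Dnmt1, where 8.02% of all genes passed. The median log2 ratio was -0.32 with a middle range of -0.94 to 0.41, against -0.01 with -0.84 to 0.81 for all genes tested. The width of such a range depends in part on how many counts the genes have. Scaled by library totals, which leave the mitochondrial and ribosomal RNA in, 15 genes passed as lower and Mcm7 alone as higher. Yet all 5 higher genes kept a ratio above 1 (1.43 to 2.02). Library totals lower the ratio to control of every gene in this pool. The percentage of all genes that passed on that scaling is not given, so the 15 cannot be set against it. The shares of each gene within its own complex, given beside the results below, do not depend on the scaling at all. The muscle markers and the mitochondrial and ribosomal share given above were also at their highest in this pool, and their part in these ratios was not tested.

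**Figure D2:**
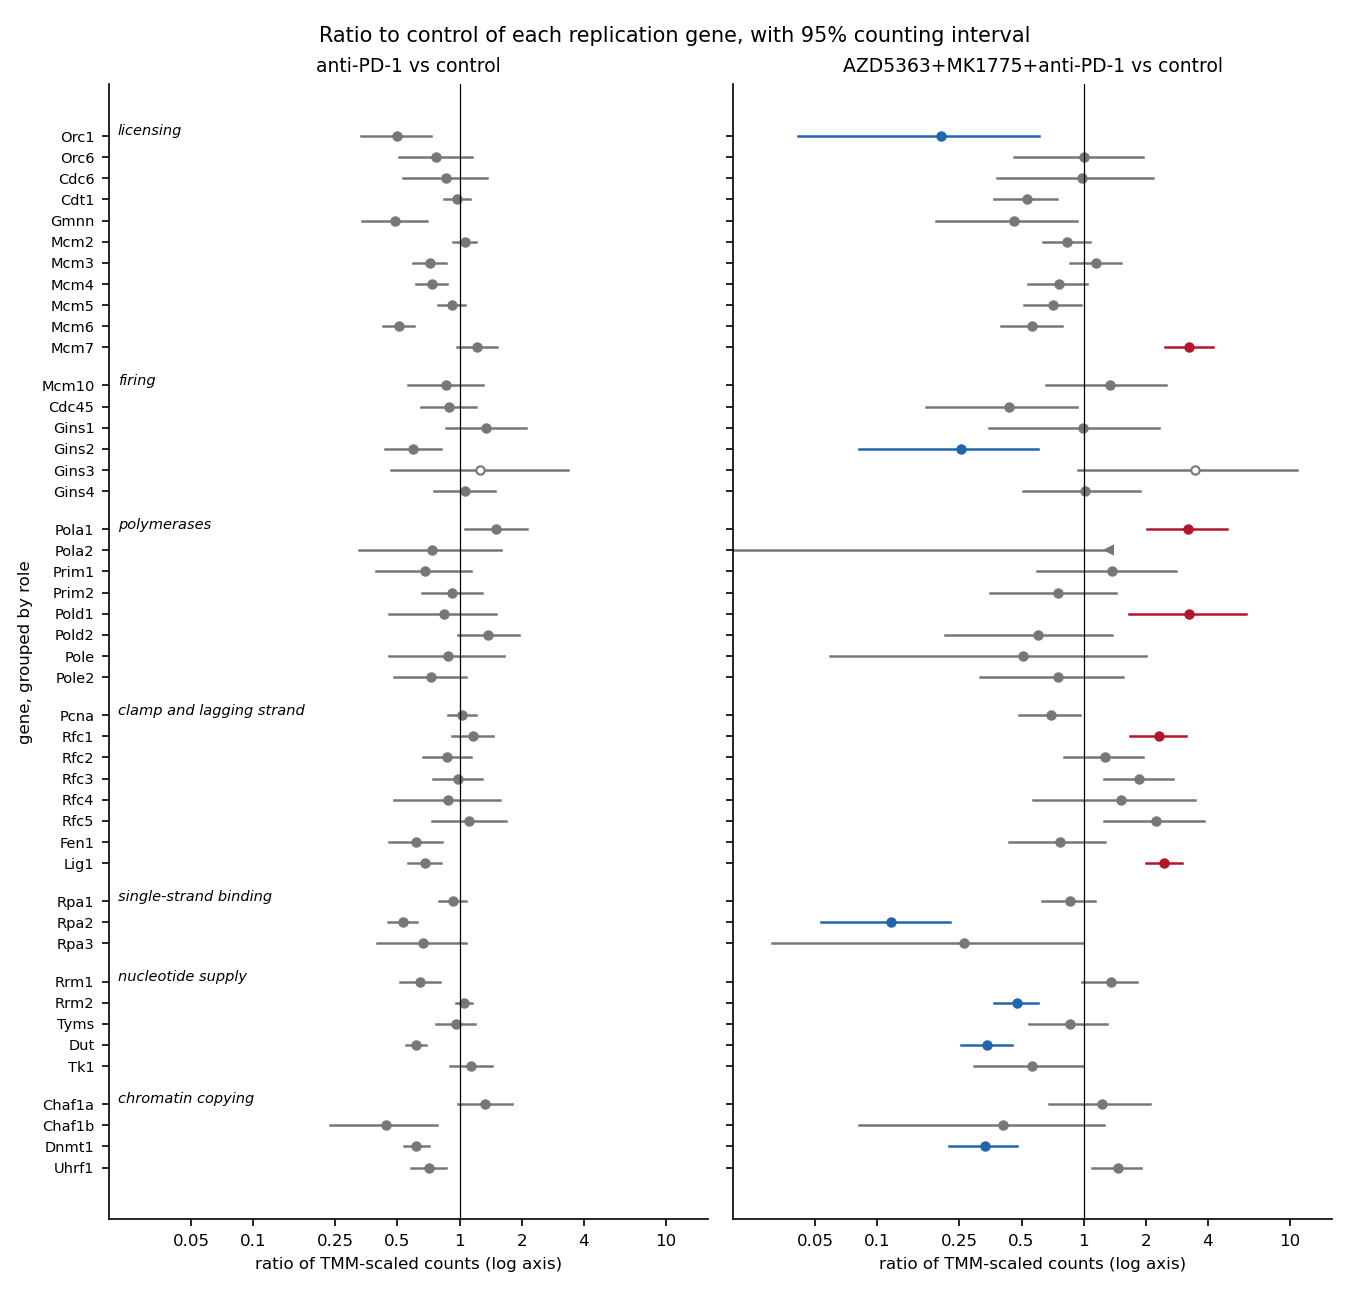
Ratio to control of each of the 45 genes under anti-PD-1 (left) and the triple-treated pool (right), on a log axis, grouped by role. Points are ratios of TMM-scaled counts of 1 pool each, lines are 95% counting intervals, red and blue mark genes past the rule as higher and lower, the open point (Gins3) had under 20 counts in both pools, and an arrowhead marks 0 counts. No gene is coloured on the left, against 5 red and 6 blue on the right, where Mcm7 lies at 3.26 and Rpa2 at 0.117.

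Among the 11 licensing genes, which mark origins and load the helicase, the 6 helicase subunits did not share 1 ratio in the triple-treated pool. Mcm7 had 149 counts under anti-PD-1, 5 under AZD5363+MK1775, 81 in the triple-treated pool, 0 under KS100, 0 under KS100+anti-PD-1 and 189 in the control pool. In the triple-treated pool 24.9 counts were expected at the control level, and the ratio was 3.26 (2.48 to 4.25). It was the 1 subunit that stood above control in that pool with its interval clear of 1. Mcm6 had 172 counts under anti-PD-1 and 39 in the triple-treated pool, against 525 in the control pool, and its ratios of 0.506 and 0.564 (0.397 to 0.782) did not pass. Mcm7 made up 24.4% of the counts of the 6 subunits in the triple-treated pool (19.9% to 29.4%) and 10.6% under anti-PD-1, against 7.24% in the control pool (6.27% to 8.3%). The share of Mcm6 was 11.7% in the triple-treated pool and 12.3% under anti-PD-1, against 20.1% in the control pool (18.6% to 21.7%). The sum of the 6 subunits was 0.966 of control (0.859 to 1.08) in the triple-treated pool. Mcm7 has a processed pseudogene, Gm5487, that matches the end of its transcript at 98.75% identity and had 0 counts in every pool, so reads could have been split or dropped between them.

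Of the loading factors 1, Orc1, passed as lower in the triple-treated pool. Orc1, the largest subunit of the origin recognition complex and an ATPase, had 36 counts under anti-PD-1 and 3 in the triple-treated pool, against 112 in the control pool. It had 0 counts in each of the other 3 pools, where 1.27 to 2.43 were expected at the control level, so a count of 0 is within what that depth allows. The triple-treated ratio of 0.203 (0.0413 to 0.61) passed. Cdt1, which brings the helicase to origins and is destroyed once S phase begins, had 323 counts under anti-PD-1, 2 under AZD5363+MK1775, 36 in the triple-treated pool, 1 under KS100, 1 under KS100+anti-PD-1 and 514 in the control pool. Its ratio was 0.97 under anti-PD-1 and 0.532 (0.368 to 0.746) in the triple-treated pool, the second short of the rule. Gmnn stood at 0.457 (0.193 to 0.927) in the triple-treated pool and did not pass either.

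Promoters of 4 licensing genes that held an E2F match are shown, since the counts of Mcm6 and Mcm7 parted in the triple-treated pool and Mcm5 and Cdt1 passed as lower under KS100. The sequences are from RefSeq on GRCm38.p6, 250 bases before to 50 after the annotated start, on the strand of the gene. Capitals mark matches on either strand to 4 forms of the E2F motif, TTTGGCGC, TTTCGCGC, TTTCCCGC and TTTGCCGC. Neighbouring matches on opposite strands can overlap, as the pairs in Mcm5 and Mcm6 do.
Mcm5, chr8:75109259-75109558, plus strand: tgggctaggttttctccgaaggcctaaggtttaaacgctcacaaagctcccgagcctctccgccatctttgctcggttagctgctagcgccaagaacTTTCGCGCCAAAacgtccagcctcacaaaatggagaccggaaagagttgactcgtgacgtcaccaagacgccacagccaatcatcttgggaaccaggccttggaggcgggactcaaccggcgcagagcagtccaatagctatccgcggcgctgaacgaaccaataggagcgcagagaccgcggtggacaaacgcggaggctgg
Mcm6, chr1:128359656-128359955, minus strand: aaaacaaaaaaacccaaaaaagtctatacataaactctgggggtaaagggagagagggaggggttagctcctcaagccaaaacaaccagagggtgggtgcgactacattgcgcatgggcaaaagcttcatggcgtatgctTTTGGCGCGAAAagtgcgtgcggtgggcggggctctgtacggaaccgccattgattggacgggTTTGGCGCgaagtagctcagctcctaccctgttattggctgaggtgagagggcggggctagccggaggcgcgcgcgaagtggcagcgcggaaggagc
Mcm7, chr5:138171834-138172133, minus strand: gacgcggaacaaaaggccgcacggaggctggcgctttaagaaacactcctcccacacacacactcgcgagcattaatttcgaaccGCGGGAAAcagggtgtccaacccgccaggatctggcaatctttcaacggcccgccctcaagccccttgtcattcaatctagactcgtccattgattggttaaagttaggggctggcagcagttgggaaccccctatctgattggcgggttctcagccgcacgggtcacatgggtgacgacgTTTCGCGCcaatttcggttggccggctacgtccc
Cdt1, chr8:122567765-122568064, plus strand: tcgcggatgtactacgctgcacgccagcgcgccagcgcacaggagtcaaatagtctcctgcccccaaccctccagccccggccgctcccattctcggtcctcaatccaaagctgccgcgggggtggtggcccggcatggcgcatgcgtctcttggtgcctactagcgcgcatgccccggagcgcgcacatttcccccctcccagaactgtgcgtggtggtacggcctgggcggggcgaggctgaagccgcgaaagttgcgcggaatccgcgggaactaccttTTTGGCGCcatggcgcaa
Mcm6 held 3 matches, Mcm7 and Mcm5 2 each and Cdt1 1. Mcm7 has a second promoter in the table, chr5:138171217-138171516, which held 0 matches and is not shown. In all, 37 of the 45 genes had an entry, with 45 promoters, and 15 of these (33.3%) held at least 1 match, against 744 of the 32851 promoters of the table (2.3%). The CCAAT box, the site of the factor NF-Y, was in 60.0% of the members' promoters and in 37.4% of all. Neither the Rrm2 nor the Rpa2 promoter held 1 of the 4 forms, which says only that these letters are not in those windows. A match is a description of the sequence and not a bound site.

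The origin firing genes were sparse. Gins2, a subunit of the GINS complex that joins the helicase as origins fire, had 58 counts under anti-PD-1, 2 under AZD5363+MK1775, 5 in the triple-treated pool, 0 under KS100, 1 under KS100+anti-PD-1 and 150 in the control pool. The ratio passed in the triple-treated pool, at 0.253 (0.081 to 0.604). It made up 17.9% of GINS counts there (6.06% to 36.9%) and 34.5% under anti-PD-1 (27.4% to 42.2%), against 50.7% in the control pool (44.8% to 56.5%). The end of Gins2 overlaps Gse1 on the other strand by 2758 bases of exon, and since the strand setting of the counting is not given in the sources used here, reads of these genes may have been mixed or dropped. Cdc45, its partner in the active helicase, was at 0.436 (0.172 to 0.926) in the triple-treated pool and did not pass.

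Of the 8 polymerase genes, 2 passed as higher in the triple-treated pool, Pola1 and Pold1. They are too few to set against the 14.9% of all genes tested that passed. Pola1 had 69 counts under anti-PD-1 and 30 in the triple-treated pool, against 71 in the control pool, with 0, 3 and 2 in the AZD5363+MK1775, KS100 and KS100+anti-PD-1 pools. The triple-treated ratio was 3.21 (2.02 to 4.98), where 9.35 counts were expected at the control level. Pola2, its regulatory subunit, had 0 counts in that pool against 23 in the control pool, where 3.03 were expected. At this depth a count of 0 passes as lower only from 44 control counts. Pola1 took 61.2% of the counts of polymerase alpha and primase in the triple-treated pool, against 29% in the control pool. Pold1, the catalytic subunit of polymerase delta, had 19 counts under anti-PD-1 and 15 in the triple-treated pool, against 35 in the control pool, and 0 counts in the other 3 pools. Its ratio was 3.26 (1.65 to 6.12), which fell short of the rule when mitochondrial and ribosomal RNA was taken out of the totals. Pold2, the accessory subunit, was at 0.6 (0.213 to 1.37), and Pold1 made up 71.4% of the counts of the pair in the triple-treated pool (47.8% to 88.7%), against 31.5% in the control pool (23% to 41%). Pole, the catalytic subunit of polymerase epsilon, was at 0.506 (0.0586 to 2) on 2 counts, an interval too wide to set beside those of Pola1 and Pold1.

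Clamp loading and ligation genes had the highest sum of the 7 role groups in the triple-treated pool, at 1.58 of control (1.4 to 1.78), although library totals gave 0.976. The polymerases followed at 1.3 (1.01 to 1.65), with 0.806 by library totals. Lig1, the ligase that joins Okazaki fragments, had 175 counts under anti-PD-1, 3 under AZD5363+MK1775, 129 in the triple-treated pool, 4 under KS100, 1 under KS100+anti-PD-1 and 398 in the control pool. Its ratio was 2.46 (2 to 3.01) in the triple-treated pool and 0.679 (0.565 to 0.813) under anti-PD-1. Fen1, the flap nuclease that acts just before it, was at 0.769 (0.437 to 1.27) in the triple-treated pool, so Lig1 took 88.4% of the counts of the pair, against 70.3% in the control pool. Rfc1, the large subunit of the clamp loader, had 136 counts under anti-PD-1, 3 under AZD5363+MK1775, 55 in the triple-treated pool, 12 under KS100, 2 under KS100+anti-PD-1 and 181 in the control pool. Its triple-treated ratio was 2.31 (1.67 to 3.14). All 5 Rfc genes of the loader had ratios above 1, with a sum of 1.86 (1.54 to 2.24), and Rfc1 made up 39% of it, against 31.4% in the control pool, with overlapping intervals. Rfc2, Rfc4, Rfc5 and Lig1 overlap Lat2 (952 bases of exon), Eif4a2 (194), Wsb2 (499) and Zswim9 (247) on the other strand, as Fen1 does Gm10143 (1909), Mcm7 does Ap4m1 (321), Cdc45 does Ufd1 (209) and Orc1 does Gm12743 (376), so the limit given for Gins2 holds for them too. Pcna, the clamp itself, stood at 0.692 (0.485 to 0.962).

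The single-strand binding protein RPA, which coats unwound DNA, showed the lowest ratio of any of the 45 genes in the triple-treated pool that had a count there. Rpa2, the subunit phosphorylated in response to stalled forks, had 200 counts under anti-PD-1, 5 under AZD5363+MK1775, 9 in the triple-treated pool, 4 under KS100, 2 under KS100+anti-PD-1 and 583 in the control pool. At the control level 76.7 were expected in the triple-treated pool, and the ratio was 0.117 (0.0534 to 0.224). Rpa1, the large DNA-binding subunit, was close to control there at 0.855 (0.629 to 1.14). Rpa2 was 14.3% of RPA counts in the triple-treated pool (6.75% to 25.4%) and 39.8% under anti-PD-1 (35.5% to 44.3%), against 52.9% in the control pool (49.9% to 55.8%). These 3 intervals did not overlap.

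Nucleotide supply was lower in the triple-treated pool, with a summed ratio of 0.538 (0.467 to 0.618) that stayed below 1 under all 5 other scalings (0.333 to 0.688). Rrm2, the S-phase subunit of ribonucleotide reductase, had 795 counts under anti-PD-1, 4 under AZD5363+MK1775, 73 in the triple-treated pool, 11 under KS100, 3 under KS100+anti-PD-1 and 1169 in the control pool. Its ratio was 0.474 (0.369 to 0.601) in the triple-treated pool and 1.05 (0.959 to 1.15) under anti-PD-1. Its partner Rrm1 was at 1.35 (0.982 to 1.82) in the triple-treated pool, and Rrm2 made up 58.9% of reductase counts there (49.7% to 67.6%) and 86.9% under anti-PD-1 (84.5% to 89%), against 80.3% in the control pool (78.2% to 82.3%). Pseudogenes of Rrm2, Gm48445 and Gm48455, match the end of its transcript at over 95% identity and had 0 counts. Dut, which removes dUTP and keeps uracil out of DNA, had 470 counts under anti-PD-1, 10 under AZD5363+MK1775, 53 in the triple-treated pool, 14 under KS100, 5 under KS100+anti-PD-1 and 1181 in the control pool. Its ratio was 0.341 (0.254 to 0.449) in the triple-treated pool and 0.615 (0.551 to 0.685) under anti-PD-1. Tyms, which makes dTMP and has a near-identical pseudogene, Tyms-ps, was at 0.855 and Tk1, the salvage kinase of thymidine, at 0.564 in the triple-treated pool, and neither passed.

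Of the chromatin genes, 1 of the pair that copies DNA methylation behind the fork passed as lower in the triple-treated pool. Dnmt1, the maintenance methyltransferase, had 284 counts under anti-PD-1, 16 under AZD5363+MK1775, 31 in the triple-treated pool, 15 under KS100, 3 under KS100+anti-PD-1 and 712 in the control pool. The triple-treated ratio was 0.331 (0.223 to 0.474). Uhrf1, which recruits Dnmt1 to hemimethylated DNA, had 158 counts under anti-PD-1, 0 under AZD5363+MK1775, 66 in the triple-treated pool, 4 under KS100, 2 under KS100+anti-PD-1 and 344 in the control pool, and its triple-treated ratio of 1.46 (1.1 to 1.9) did not pass and became 0.902 by library totals. Dnmt1 held 32% of the counts of the pair in the triple-treated pool (22.9% to 42.2%) and 64.3% under anti-PD-1, against 67.4% in the control pool (64.5% to 70.2%).

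**Figure D3:**
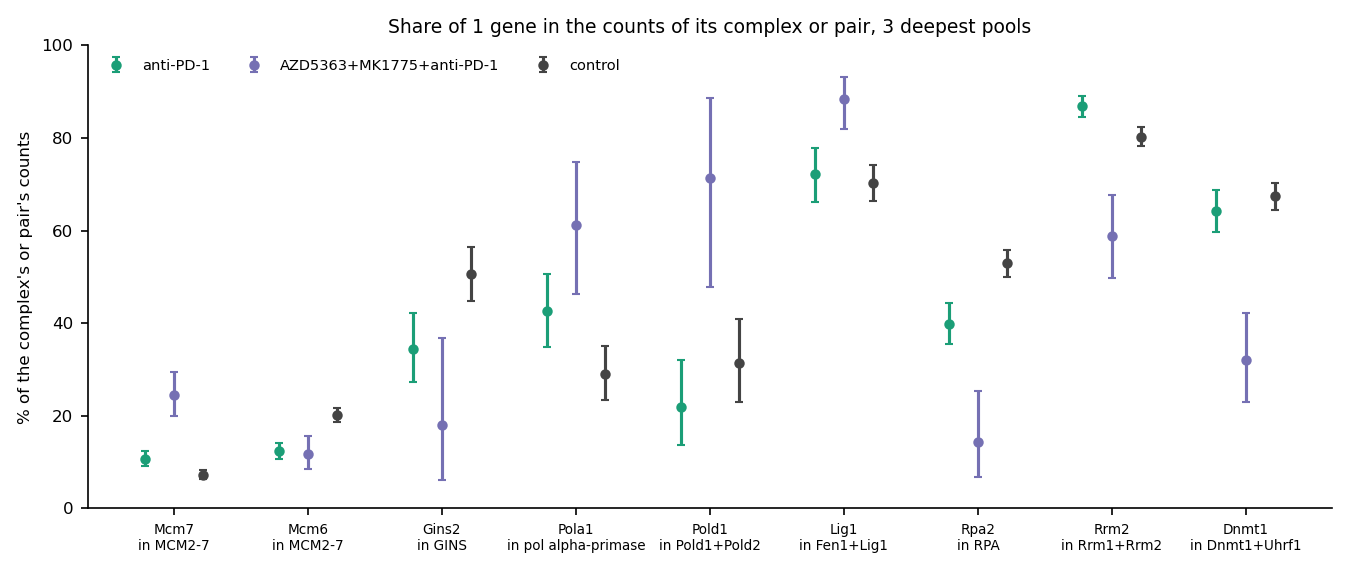
Percent of the counts of a complex or pair that 1 gene holds under anti-PD-1, the triple-treated pool and the control pool. Points are single pools and bars are 95% exact binomial intervals. In the triple-treated pool Mcm7 holds 24.4% of helicase counts against 7.24% in control, and Rpa2 holds 14.3% of RPA counts against 52.9% in control.

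Set against the anti-PD-1 pool, to ask what the AKT and WEE1 inhibitors added to the antibody, the triple-treated pool had a summed ratio of 1.01 (0.949 to 1.07), which became 0.608 by library totals. Of 40 genes with enough counts, Mcm7 (2.67, 2.01 to 3.53), Lig1 (3.63, 2.87 to 4.58) and Uhrf1 (2.05, 1.52 to 2.76) were higher, where 14% of all genes tested passed. Rpa2 (0.221, 0.0998 to 0.429) and Rrm2 (0.452, 0.35 to 0.575) were lower, where 8.11% passed. Uhrf1 was just inside the rule and fell outside it under all 4 other scalings that were run for calls. The comparison of the triple-treated pool with the AZD5363+MK1775 pool, which adds the antibody to the inhibitors, tested 20 genes. Lig1 was higher at 5.88 (1.97 to 28.9), on 129 counts against 3, and Uhrf1 at least 3.01-fold higher, on 66 counts against 0 and a limit of 3 (lower end of the exact interval 2.38), where 11.1% of genes passed. Library totals lost both calls, and totals without mitochondrial and ribosomal RNA lost that of Lig1. The median log2 ratio was 0.74 for the 20 genes, against 1.1 for all genes tested. These medians depend as well on how many genes had 0 counts in the AZD5363+MK1775 pool. Dnmt1 was lower at 0.265 (0.14 to 0.518), where 3.72% passed. These comparisons share the triple-treated pool with the one above, so they do not stand as separate evidence.

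In the AZD5363+MK1775 pool without antibody the 45 genes were lower in sum, but few could be read singly. Their median log2 ratio was -0.85 with a middle range of -3.45 to 0.03, against -1.03 with -3.38 to 0.26 for all genes tested. At this depth such medians depend on how many genes had 0 counts, 15 of the 45 here, and so on control counts. They do not show whether the members were lower than other genes. Only 14 genes had enough control counts for a complete loss to pass the rule, and 2 for a fall to 0.25 of control. Passing as lower were 2 of 44 genes, where 1.28% of all genes passed, and 0 as higher, where 1.65% passed. Rrm2 had 4 counts where 21 were expected at the control level, a ratio of 0.19 (0.0517 to 0.488). Uhrf1 had 0 counts where 6.19 were expected, at least 2.06-fold lower with 3 counts as the limit (upper end of the exact interval 0.599), a call that was lost when mitochondrial and ribosomal RNA was left out of the totals. Dnmt1, by contrast, had 16 counts where 12.8 were expected. By role the sums were lowest for RPA at 0.454 (0.207 to 0.864), clamp and ligation at 0.46 (0.245 to 0.79) and nucleotide supply at 0.476 (0.311 to 0.699), all 3 of them at or just above 1 (1.03, 1.04 and 1.08) when scaled to melanoma markers.

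RPA and the licensing genes had the lowest sums of the 7 role groups in both KS100 pools. The summed muscle and fibroblast markers were above control there, within the limits given above. Under KS100 and KS100+anti-PD-1 the muscle sum rested on 9 and 17 counts and the fibroblast sum on 18 and 11, with several markers of each list at 0. The part of these markers in the role sums was not tested. RPA stood at 0.209 (0.0678 to 0.49) under KS100 and 0.241 (0.0496 to 0.705) under KS100+anti-PD-1, on 5 and 3 counts, and at 0.733 and 1.45 when scaled to melanoma markers. The sum of the licensing genes was 0.316 of control (0.202 to 0.471) under KS100, on 24 counts where 75.9 were expected, and 0.253 (0.121 to 0.466) under KS100+anti-PD-1, on 10 counts where 39.6 were expected. All 4 other scalings by totals or size factors gave 0.178 to 0.313 for licensing, and scaling to melanoma markers turned the direction, to 1.11 and 1.52. The sum of the polymerase genes was not low, at 1.58 (0.896 to 2.59) and 2.46 (1.3 to 4.26), on 16 and 13 counts of which 3.53 and 4.12 were expected as background. It rested largely on Prim2 and Pole2, with 5 and 6 counts under KS100 and 7 and 2 under KS100+anti-PD-1. Prim1 and Pold1 had 0 counts in both KS100 pools. Mcm5 stood out on the TMM-scaled counts. It had 285 counts under anti-PD-1, 7 under AZD5363+MK1775 and 45 in the triple-treated pool. It had 0 in both KS100 pools and 480 in the control pool. Both KS100 pools together would have held 15.8 Mcm5 counts at the control level. That expectation does not allow for the melanoma markers, at 0.285 of control under KS100 and 0.166 under KS100+anti-PD-1. Scaled to them it would be smaller. In the other deep pools Mcm5 stood at 0.917 (0.789 to 1.06) under anti-PD-1 and 0.712 (0.513 to 0.968) in the triple-treated pool, where library totals gave 0.441 and a call as lower. Of the 45 genes, 10 had 0 counts in both KS100 pools, and after Mcm5 the next largest expectation was 6.23 counts, for Mcm7.

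Past the rule as lower under KS100 were Mcm5, Cdt1 and Rpa1. Mcm5 was at least 3.47-fold lower with 3 counts as the limit, on 0 counts where 10.4 were expected. Cdt1 had 1 count where 11.1 were expected, a ratio of 0.0898 (0.00227 to 0.502). Rpa1 had 1 count where 10 were expected, a ratio of 0.0999 (0.00252 to 0.559). These 3 genes were among 44 tested, where 1.86% of all genes tested passed as lower. Scaled to melanoma markers, fewer counts of each would be expected, and the rule was not run on that scaling. Rpa1 had 277 counts under anti-PD-1, 3 under AZD5363+MK1775, 52 in the triple-treated pool, 1 under KS100+anti-PD-1 and 462 in the control pool. On the higher side Rfc1 passed at 3.06 (1.55 to 5.48), where 4.5% of all genes passed, and this call was lost under 3 of 4 other scalings. The median log2 ratio was -1.57, against -0.49 for all genes tested. In this pool 15 genes had enough control counts for a complete loss to pass.

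In the KS100+anti-PD-1 pool, Mcm2 and Rrm2 passed as lower, where 2.86% of all genes passed, and Gins1 and Prim2 as higher, where 4.59% passed. Mcm2, a helicase subunit, had 420 counts under anti-PD-1, 7 under AZD5363+MK1775, 67 in the triple-treated pool, 4 under KS100, 0 under KS100+anti-PD-1 and 613 in the control pool. With 6.93 counts expected it was at least 2.31-fold lower with 3 counts as the limit. Rrm2 had 3 counts where 13.2 were expected, a ratio of 0.227 (0.0468 to 0.666) that lost its call with DESeq2 size factors and became 1.37 when scaled to melanoma markers. The median log2 ratio of the 44 genes was -1.55, against -2.48 for all genes tested. Gins1, a GINS subunit, had 40 counts under anti-PD-1, 2 under AZD5363+MK1775, 6 in the triple-treated pool, 1 under KS100, 5 under KS100+anti-PD-1 and 46 in the control pool, and its ratio was 9.62 (2.98 to 24.1). Prim2, the large primase subunit, had 60 counts under anti-PD-1, 0 under AZD5363+MK1775, 10 in the triple-treated pool, 5 under KS100, 7 under KS100+anti-PD-1 and 101 in the control pool, and its ratio was 6.13 (2.41 to 13.1). Background alone would give 0.131 counts of Gins1 and 0.513 of Prim2 in that pool if it were spread evenly over exons. Against the anti-PD-1 pool, the same 4 genes of 40 passed in the same directions, where 3.06% of all genes passed as lower and 3.33% as higher. Both comparisons share the KS100+anti-PD-1 pool, so these calls are not separate evidence. No member had 20 counts in either KS100 pool, so 0 members were tested for the antibody added to KS100, where 34% of 209 genes tested passed as lower and 4.31% as higher. The sum gave 0.923 (0.672 to 1.26).

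**Figure D4:**
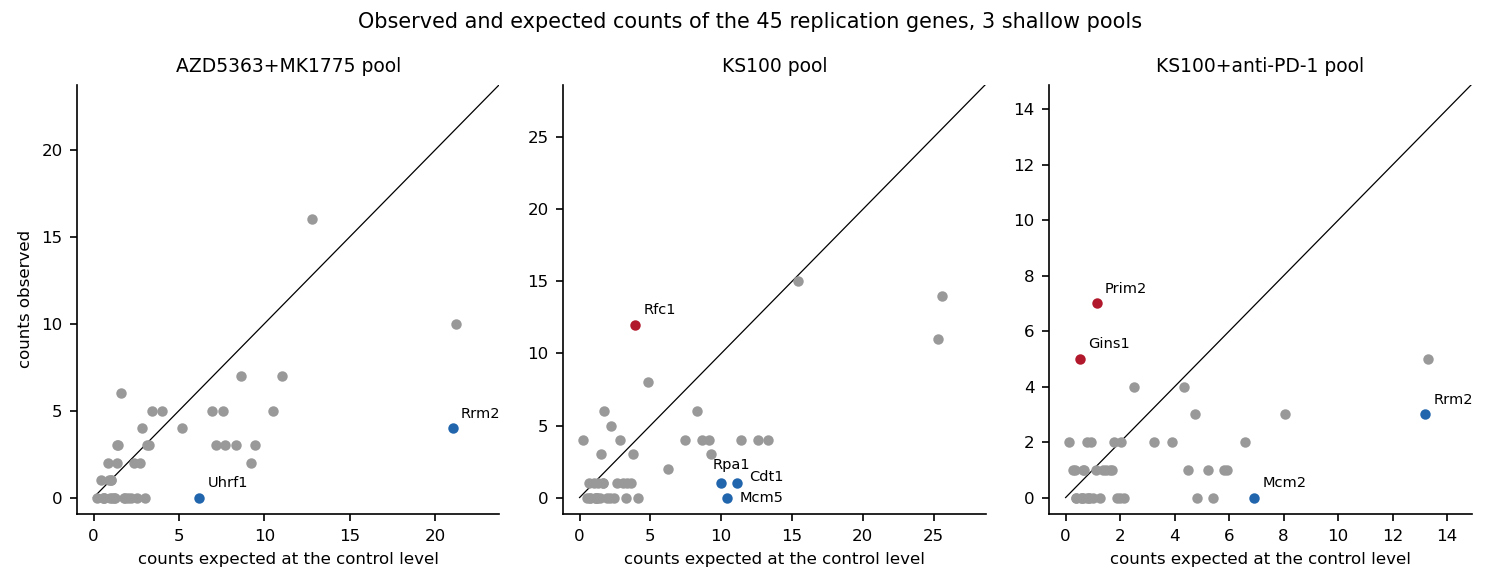
Counts observed in the 3 shallow pools (vertical) against the counts expected had each of the 45 genes stood at the control level (horizontal), with the line of equality. Each point is 1 gene in 1 pool, and named points in blue and red passed the rule as lower and higher. Mcm5 has 0 counts where 10.4 were expected under KS100, and Rrm2 has 4 where 21 were expected under AZD5363+MK1775.

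A model that added an antibody effect to an inhibitor effect used all 6 pools. In it pools of other treatments stand in for replicates with 2 residual degrees of freedom, and 33 of the 45 genes could be fitted. By edgeR's quasi-likelihood test with Benjamini-Hochberg adjustment over 4912 genes, KS100 gave 1 call in each direction. Mcm5 was lower at an adjusted p of 0.00976, with 0 counts in both KS100 pools and counts in all 4 others, so its fitted log2 change of -10.16 (SE about 2.92) is no measure of size. Gins3, a GINS subunit with 9 counts under anti-PD-1, 0 under AZD5363+MK1775, 5 in the triple-treated pool, 4 under KS100, 2 under KS100+anti-PD-1 and 11 in the control pool, was higher by a log2 change of 3.87 (SE about 1.22) at an adjusted p of 0.0245. Of all genes fitted, 0.489% were called lower and 7.21% higher for KS100. The Mcm5 call was lost without the control, anti-PD-1, KS100 or KS100+anti-PD-1 pool (adjusted p 0.0129 to 0.228 over the 6 omissions) and held under DESeq2 at an adjusted p of 0.0484. The Gins3 call was lost with library totals (adjusted p 0.0551), with no filter (0.0834), under DESeq2 (0.23) and without any 1 pool: in 3 omissions the adjusted p was 0.217 to 0.809, and in the other 3 the gene no longer passed the low-count filter. Without adjustment 6 genes were lower and 2 higher for KS100 at a p under 0.05. The AZD5363+MK1775 arm and anti-PD-1 gave 0 calls by edgeR and by DESeq2 and 0 genes at an unadjusted p under 0.05 by edgeR, where 0.0611% and 0.0407% of all genes were called lower and 1.28% and 0.102% higher.

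Genes of the same processes outside the 45 were counted by the same rule against control. Of 37 other replication factors, 0 of 33 tested passed in either direction under anti-PD-1, while 5 of 32 passed as higher and 3 as lower in the triple-treated pool, shares near the 14.9% and 8.02% of all genes tested. There Supt16, a subunit of the histone chaperone FACT, was 21.3-fold higher (12.8 to 37) on 59 counts against 21. On the lower side were Rnaseh2c, a subunit of the nuclease that removes ribonucleotides from DNA, at 0.114 (0.0137 to 0.421) and Tonsl, which binds new histones behind the fork, at 0.271 (0.143 to 0.469). Under AZD5363+MK1775 1 of 32 passed, Tonsl, where 1.28% of all genes passed as lower. It had 0 counts against 365 and was at least 2.19-fold lower with 3 counts as the limit (upper end of the exact interval 0.565). Under KS100 1 of 32 passed, Rnaseh2b, another subunit of that nuclease, 14.6-fold higher (8.07 to 25.1) on 18 counts against 57, where 4.5% of all genes passed as higher. Under KS100+anti-PD-1 3 of 32 passed, all higher, where 4.59% of all genes did: Rnaseh2b at 9.32 (3.28 to 21.6), the histone chaperone Asf1a at 4.35 (1.57 to 9.75) and the topoisomerase Top1 at 3.47 (2 to 5.62). No other replication factor passed as lower in either KS100 pool. A count of 0 passes there only from 258 control counts under KS100 and 492 under KS100+anti-PD-1. For genes with fewer control counts, the lack of a call says nothing about a fall.

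Of 34 other nucleotide synthesis genes, 2 of 32 passed as higher under anti-PD-1, where 2.69% of all genes did: Mthfd2, a mitochondrial folate enzyme, at 2.35 (2.08 to 2.65) and Rrm2b, the p53-induced reductase subunit, at 2.99 (1.55 to 5.99). In the triple-treated pool 2 of 31 passed in each direction, no larger a share than the 14.9% higher and 8.02% lower of all genes, among them Samhd1, which degrades deoxynucleotides, at 4.73 (3.47 to 6.42) and Mthfd1, a cytosolic folate enzyme, at 0.177 (0.036 to 0.528). Prps1, which makes phosphoribosyl pyrophosphate for nucleotide synthesis, passed as lower in all 4 inhibitor pools. It had 0 counts under AZD5363+MK1775, 24 in the triple-treated pool, 3 under KS100 and 0 under KS100+anti-PD-1, against 645 in the control pool. Its triple-treated ratio was 0.283 (0.18 to 0.424). It was the only 1 of 31 to pass as lower under AZD5363+MK1775, KS100 and KS100+anti-PD-1, where 1.28%, 1.86% and 2.86% of all genes did. In these pools a count of 0 passes only from 310, 258 and 492 control counts, so genes below that could not have passed as lower. All 4 calls share the control pool, so they are not separate evidence. Under KS100+anti-PD-1 2 of 31 passed as higher, where 4.59% of all genes did. They were Samhd1 at 7.76 (3.63 to 14.8) and Dhodh, a pyrimidine synthesis enzyme, at 11.5 (2.22 to 38.2), on 10 and 3 counts.

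Of 17 G1/S regulators, 14 were tested in each pool and at most 1 passed in any, too few to set against the shares of all genes given above. Under anti-PD-1 Skp2, a subunit of the ligase that marks the inhibitor p27 for destruction, passed as higher at 2.73 (1.71 to 4.42). In the triple-treated pool Cdc25a, a phosphatase that opposes WEE1, passed as higher at 5.31 (3.93 to 7.14) on 79 counts against 113. Under AZD5363+MK1775 0 passed, where a count of 0 passes as lower only from 310 control counts. Ccna2, the S-phase cyclin A2, passed as lower under KS100 at 0.107 (0.0027 to 0.6) on 1 count against 431, and Ccne2, cyclin E2, as higher under KS100+anti-PD-1 at 10.6 (2.05 to 34.8) on 3 counts against 25.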

How the data were processed

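The authors deposited raw counts, whole numbers for each Ensembl gene in 1 table, made with bcl2fastq, HISAT2 2.1.0, HTSeq and genome build GRCm38, per the submitters' processing notes. Strand setting, annotation release and the handling of multi-mapping reads are not stated there, so single values of genes with overlapping partners or near-identical copies are uncertain. Libraries were made from oligo-dT primed RNA with the QuantSeq 3′ FWD kit and run for 151 cycles on a MiSeq, per the labels' protocols. Tumours were pooled before extraction.

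Symbols, exon lengths and overlaps came from GENCODE M21, copies from blastn 2.17.0 over the last 400 bases of each transcript (at least 95% identity over 150 bases), and promoters from RefSeq. TMM factors were computed with edgeR 4.0.16 in R 4.3.3 on the 4912 genes that filterByExpr kept. Ratios have exact conditional 95% intervals (scipy 1.17.1), log2 ratios a prior count of 2, and shares exact Clopper-Pearson intervals. Without molecular identifiers these cover counting error only. The additive model used glmQLFit and glmQLFTest at an adjusted p of 0.05, and its SE, the change over the square root of F, is rough. DESeq2 1.42.0 was an alternative. The size rule was tried on simulated counts with counting error only. The model was tried on simulated counts with less spread than was fitted here (common dispersion 0.215). Neither trial shows how they behave under the spread between tumours. Expected background is the rate per exon base in 8817 protein-coding genes with no count in either deep pool without inhibitor, times exon length. The members, roles and lists were chosen with earlier results of these data known. Values in every pool are given for Mcm5, Rrm2, Cdt1 and each member past the rule or called in the fit. Of the companion lists, up to 3 genes per list and comparison with control are named, those past the rule with the largest log2 ratio; the comparisons with other pools are not printed.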

Additional observations from a re-analysis of the deposited data

Results flagged for a closer look

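Lig1 and Uhrf1 were picked out because their ratios for 1 treatment lay on opposite sides of 1 depending on the other treatment given. Adding anti-PD-1 to AZD5363+MK1775 put Lig1 at 5.88 times its level without the antibody (1.97 to 28.9), a call lost under 2 of 4 other scalings in a comparison where all genes tested had a median log2 ratio of 1.1, whereas anti-PD-1 without inhibitor put it at 0.679 of control (0.565 to 0.813). For Uhrf1 the same contrasts were at least 3.01-fold higher with the inhibitors, on 66 counts against 0 with 3 counts as the limit (2.38 at the lower end of the exact interval; the call was lost by library totals), and 0.709 of control (0.584 to 0.859) without them. Adding AZD5363+MK1775 to anti-PD-1 put Uhrf1 at 2.05 (1.52 to 2.76), a call lost under all 4 other scalings. AZD5363+MK1775 without antibody gave 0 counts, at least 2.06-fold lower with that limit (0.599 at the upper end of the exact interval). That call was lost when mitochondrial and ribosomal RNA was left out of the totals. The differences between these contrasts were not tested, since each effect rests on 1 pool a side, and the AZD5363+MK1775 pool held 3 counts of Lig1 and 0 of Uhrf1.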

How the results depend on the processing

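No paired analysis was possible because each treatment had 1 pool. Leaving out a pool could be done in the additive fit alone: KS100 then called 0 to 1 genes lower and 0 higher. Scaling to melanoma marker counts, chosen after seeing the data, gave summed ratios to control of 0.993 (anti-PD-1), 1.34 (AZD5363+MK1775), 1.06 (triple-treated), 1.86 (KS100) and 2.95 (KS100+anti-PD-1), of 0.792 for the triple-treated against the AZD5363+MK1775 pool, 2.97 for KS100+anti-PD-1 against anti-PD-1 and 1.59 against KS100. It turned the direction of Rrm2 in the KS100+anti-PD-1 pool, to 1.37 against control and 1.08 against anti-PD-1. The cause was not tested.

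Library totals gave sums of 0.514 (triple-treated), 0.41 (KS100) and 0.346 (KS100+anti-PD-1) against control, 0.608 and 0.808 for the triple-treated against the anti-PD-1 and AZD5363+MK1775 pools, and 0.408 for KS100+anti-PD-1 against anti-PD-1. They called 15, 6 and 6 genes lower in the triple-treated, KS100 and KS100+anti-PD-1 pools and 1 and 0 higher in the triple-treated and KS100 pools. Of the triple-treated against anti-PD-1 they called 12 lower and 1 higher, of the triple-treated against AZD5363+MK1775 0 higher, and of KS100+anti-PD-1 against anti-PD-1 4 lower. In the additive fit they called 4 lower and 0 higher for KS100. The percentages of all genes called are not given for the other scalings and rules of this section, so its counts of members cannot be set against them.

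Totals without mitochondrially encoded and ribosomal RNA gave sums of 0.723 (AZD5363+MK1775) and 0.749 (triple-treated) against control, and 0.891 and 1.04 for the triple-treated against the anti-PD-1 and AZD5363+MK1775 pools. Calls became 1 lower (Rrm2) and 1 higher (Gins4) for AZD5363+MK1775, 0 higher for KS100, 4 lower for KS100+anti-PD-1 against control and against anti-PD-1, and 1 higher (Uhrf1) for the triple-treated against AZD5363+MK1775. TMM over all genes gave sums of 0.438 (KS100) and 0.351 (KS100+anti-PD-1) against control and 0.422 against anti-PD-1, with 5, 5 and 4 genes lower and 0 higher for KS100. DESeq2 size factors left 1 lower (Mcm2) for KS100+anti-PD-1.

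Without the gene with most counts the sum was 0.796 for anti-PD-1 and 1.09 for the triple-treated against the anti-PD-1 pool. A minimum of 10 counts called 2 higher in the KS100 pool. A looser rule, 1.5-fold with the interval beyond 1, called 10, 5, 12, 10 and 7 lower in the anti-PD-1, AZD5363+MK1775, triple-treated, KS100 and KS100+anti-PD-1 pools, and 1, 1 and 2 higher in the anti-PD-1, AZD5363+MK1775 and KS100 pools. It called 7 lower and 9 higher for the triple-treated against anti-PD-1, 4 higher against AZD5363+MK1775, and 5 lower for KS100+anti-PD-1 against anti-PD-1. No filter or DESeq2 in place of edgeR gave 0 higher for KS100. Depth limits single genes: a complete loss could have passed for 14 genes under AZD5363+MK1775, 15 under KS100 and 7 under KS100+anti-PD-1.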
